A study of Mus musculus with 9 samples.

Results

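Transcripts of the TNF ligand and receptor superfamilies were followed in mouse brain after intracerebral haemorrhage (ICH), which is bleeding into the brain tissue. The members were Tnf and every gene whose symbol is Tnfsf or Tnfrsf followed by a digit, which gave 33 of the 36346 genes of the deposited table. They are 12 ligands, 20 receptors and 1 antisense transcript, Tnfsf13os. Brain tissue came from wild-type C57BL/6 mice in 3 groups of 3 mice, with 1 library per mouse. The sham group, labelled as control treatment, the ICH group and the ICH+PTE group, which had ICH and received pterostilbene, were all taken at 72 hours. Pterostilbene (PTE) is a plant polyphenol related to resveratrol. The sources used here do not give its dose and route, the way the haemorrhage was made, the side and region of brain or the age of the mice. The comparisons ask what ICH changed, how adding PTE altered the levels seen in ICH, and where ICH+PTE differed from sham.

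TNF family ligands are made mostly as trimers on the surface of immune and tissue cells, and many are cut free by proteases. Their receptors signal through adaptor proteins to NF-kappaB and MAP kinases, and those with a death domain can also start apoptosis or necroptosis. In the brain, microglia and infiltrating leukocytes are known sources of TNF after injury, while neurons, glia and vessels carry several of the receptors.

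Values are FPKM, fragments scaled by transcript length and by the library's mapped total, so levels can be set side by side per length between genes. Differences between groups are of log2(FPKM + 0.5), a scale that understates the change of low genes, and ± after a difference is its standard error. The test covered the 15376 genes that reached 1 FPKM in at least 3 libraries, among them 19 of the 33 members. A gene was called at a limma adjusted p under 0.05. Of the 19 tested members, 4 (Tnf, Tnfsf10, Tnfrsf14 and Tnfrsf26) reached 1 FPKM in ICH libraries only. A gene that passed through the group where it is high had to differ, so counts over the tested members describe them and are no support for a direction.

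The libraries carried the markers of brain, and their makeup differed between the groups. The summed level of 6 neuronal markers ranged over 461 to 482 FPKM in sham, over 184 to 234 in ICH and over 342 to 486 in ICH+PTE. Among 8 microglia and macrophage markers the sums were 84.5 to 109, 682 to 867 and 82.9 to 177 FPKM in the same order. The 8 T cell markers summed to 0.817 to 1.45, 3.66 to 6.11 and 0.514 to 2.45 FPKM, and the 9 neutrophil markers to 0.801 to 1.48, 15.0 to 23.1 and 13.7 to 30.5 FPKM, with Ly6g and Elane at 0 in sham and Ly6g at 0 in ICH. The 7 markers of fibroblasts and mural cells summed to between 23.7 and 32.3 FPKM in sham, between 158 and 275 in ICH and between 32.2 and 48.6 in ICH+PTE. For the oligodendrocyte lineage (6 markers) the sums were 559 to 1064, 833 to 1262 and 402 to 581 FPKM in the same order. Endothelium (6 markers) had sums of 26.5 to 40.8, 109 to 124 and 52.9 to 71.4 FPKM, and astrocytes (6 markers) of 344 to 492, 863 to 925 and 547 to 736 FPKM. Such sums follow their most abundant genes. Group means were 154, 665 and 425 FPKM for Gfap and 144, 78.2 and 93.5 for Slc1a2. They were 17.9, 515 and 42.9 FPKM for Cd68 and 13.9, 16.7 and 9.01 for P2ry12. In ICH against sham 4 of the 6 astrocyte markers were called higher and 1 lower. Of the 8 microglia and macrophage markers 7 were called higher and 0 lower. Over all tested genes 31.6% were higher and 32.1% lower. In 20 small-intestine markers the sums were 9.15 to 15.2, 25.5 to 33.5 and 14.3 to 23.3 FPKM. Of these 20 markers 11 were listed at 0 in every sham library, 7 in every ICH library and 0 in every ICH+PTE library. Much of the ICH sum was Anpep, an aminopeptidase that myeloid and mural cells also make, at 13.9, 21.1 and 17.4 FPKM in ICH and 1.25, 1.76 and 1.85 in ICH+PTE. The enterocyte gene Fabp2 stood at 0, 0.122 and 0 FPKM in ICH and 0.975, 1.02 and 1.68 in ICH+PTE, and Fabp6 was listed at 0 in all sham and ICH libraries and stood at 2.39, 1.03 and 3.27 FPKM in ICH+PTE. The part of intestinal or of any other cell type's transcripts in the differences below was not tested. In such bulk samples, fewer cells of a type and less RNA per cell cannot be told apart. Mitochondrially encoded transcripts were between 21.7% and 22.9% of all FPKM in sham, between 13.6% and 16.7% in ICH and between 25.6% and 28.9% in ICH+PTE.

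In sham brain the family was led by a pair of receptors, Tnfrsf21 at 16.3 ± 1.38 FPKM and Tnfrsf19 at 13.6 ± 1.04 FPKM (mean ± SD, n = 3, as for all group means). Tnfrsf21 (death receptor 6) and Tnfrsf19 (TROY) are both known from neural tissue. Together they made up 62.3% to 63.6% of the summed FPKM of the 20 receptors. After them came Tnfrsf1a at 4.87 ± 0.749, Tnfrsf25 at 2.90 ± 0.145, the ligand Tnfsf12 at 2.87 ± 0.510 and Tnfrsf1b at 2.02 ± 0.384 FPKM. The neighbours Tnfrsf25 and Tnfsf12 lay within their spread of each other.

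After ICH the order was another one, with both TNF receptors at the top. Tnfrsf1a was at 37.2 ± 3.43 FPKM and Tnfrsf1b at 29.4 ± 5.19, ahead of Tnfrsf21 at 20.7 ± 0.780, Tnfsf12 at 17.4 ± 3.52 and Tnfrsf19 at 16.2 ± 4.47. The last 3 overlap within their SDs, so their order is not resolved. The summed FPKM of the 20 receptors lay between 45.9 and 51.0 in sham, between 125 and 138 in ICH and between 63.0 and 78.4 in ICH+PTE. The share of Tnfrsf1a and Tnfrsf1b in that sum lay between 12.7% and 15.8% in sham, between 45.7% and 52.1% in ICH and between 33.0% and 35.7% in ICH+PTE. The share of Tnfrsf19 and Tnfrsf21 lay between 24.4% and 32.9% in ICH and between 30.6% and 37.6% in ICH+PTE. In ICH+PTE the order ran from Tnfrsf1a at 18.5 ± 2.51 through Tnfrsf21 at 12.5 ± 0.839, Tnfrsf19 at 10.7 ± 1.56 and Tnfrsf12a at 10.3 ± 2.73 FPKM. The SDs of the last 3 overlap, so their order is not resolved.

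**Figure D1:**
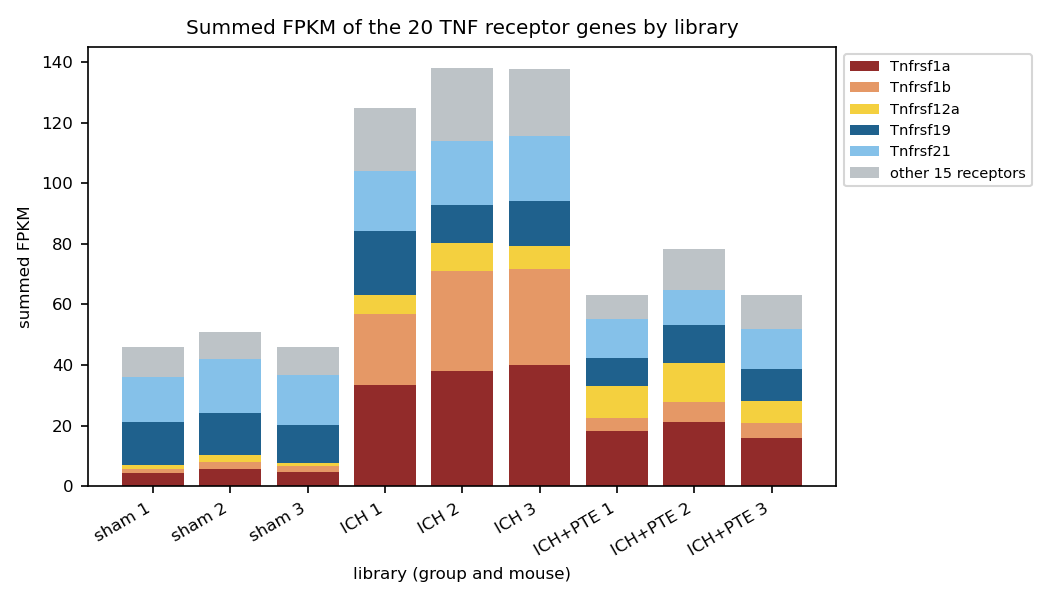
Summed FPKM of the 20 receptors in each of the 9 libraries, with the leading receptors as coloured parts of each bar. The sums reach 125 to 138 FPKM in ICH, where Tnfrsf1a and Tnfrsf1b take 45.7% to 52.1%, against 45.9 to 51.0 FPKM in sham, where Tnfrsf19 and Tnfrsf21 take 62.3% to 63.6%.

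**Figure D2:**
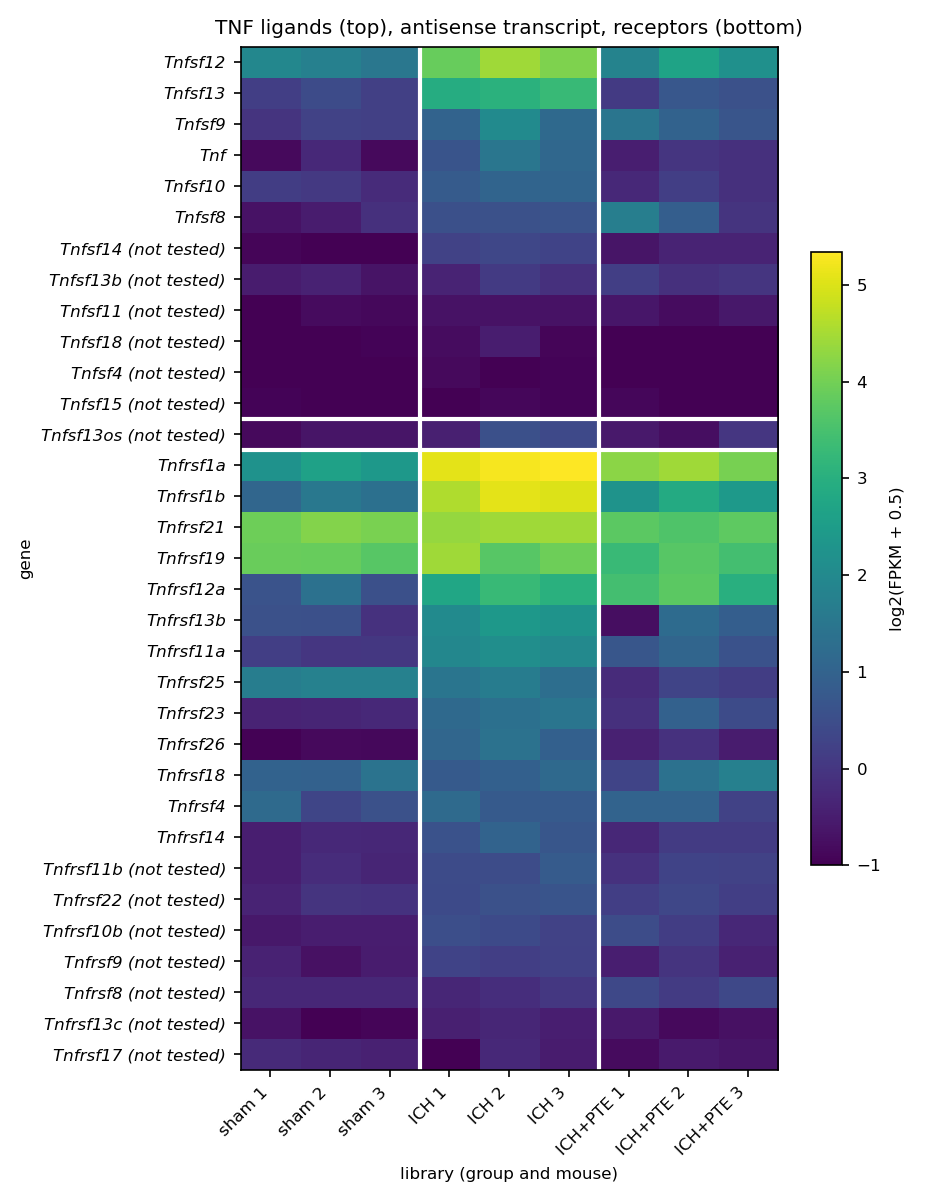
Level of each of the 33 members (rows, ligands above receptors) in each of the 9 libraries (columns) as log2(FPKM + 0.5). Most of the brighter cells of rows such as Tnfrsf1b, Tnfsf13 and Tnf lie in the 3 ICH columns, while Tnfrsf21 and Tnfrsf19 are bright in all columns.

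Against sham, 15 of the 19 tested members were higher in ICH and 0 were lower, where 31.6% of all tested genes were higher, 32.1% lower and 63.7% called in either direction. All 6 tested ligands and 9 of 13 tested receptors were among the 15. The median log2 difference was 1.66 over the 19 members and -0.02 over all tested genes. Of the 9 members with at least 1 FPKM in some library of both groups, 5 were higher and 4 were not called. The other 10 reached 1 FPKM in ICH and not in sham, and all 10 were higher. The ICH and sham values did not overlap in 16 of 19 members, against 73.5% of all tested genes.

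With PTE, 14 of the 19 were lower than in ICH and 0 were higher, where 30.5% of all tested genes were lower, 26.4% higher and 56.9% called in either direction. They were 4 of the 6 ligands and 10 of the 13 receptors, with a median log2 difference of -0.99 over the 19 members and -0.02 over all tested genes. Of the 14 members with at least 1 FPKM in some library of both groups, 9 were lower. Against sham, 7 members were higher in ICH+PTE and 2 were lower, where 11.3% of all tested genes were higher, 12.1% lower and 23.4% called in either direction. The 2 lower members of 19 are near that background, and the other 10 were not called. The ICH+PTE and ICH values did not overlap in 14 of the 19 members, against 64.7% of all tested genes, and the ICH+PTE and sham values in 11, against 38.6%.

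The comparisons share libraries, so a high ICH value raises the difference of ICH from sham and lowers that of ICH+PTE from ICH. The level of each tested member in every library is therefore given before its differences.

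**Figure D3:**
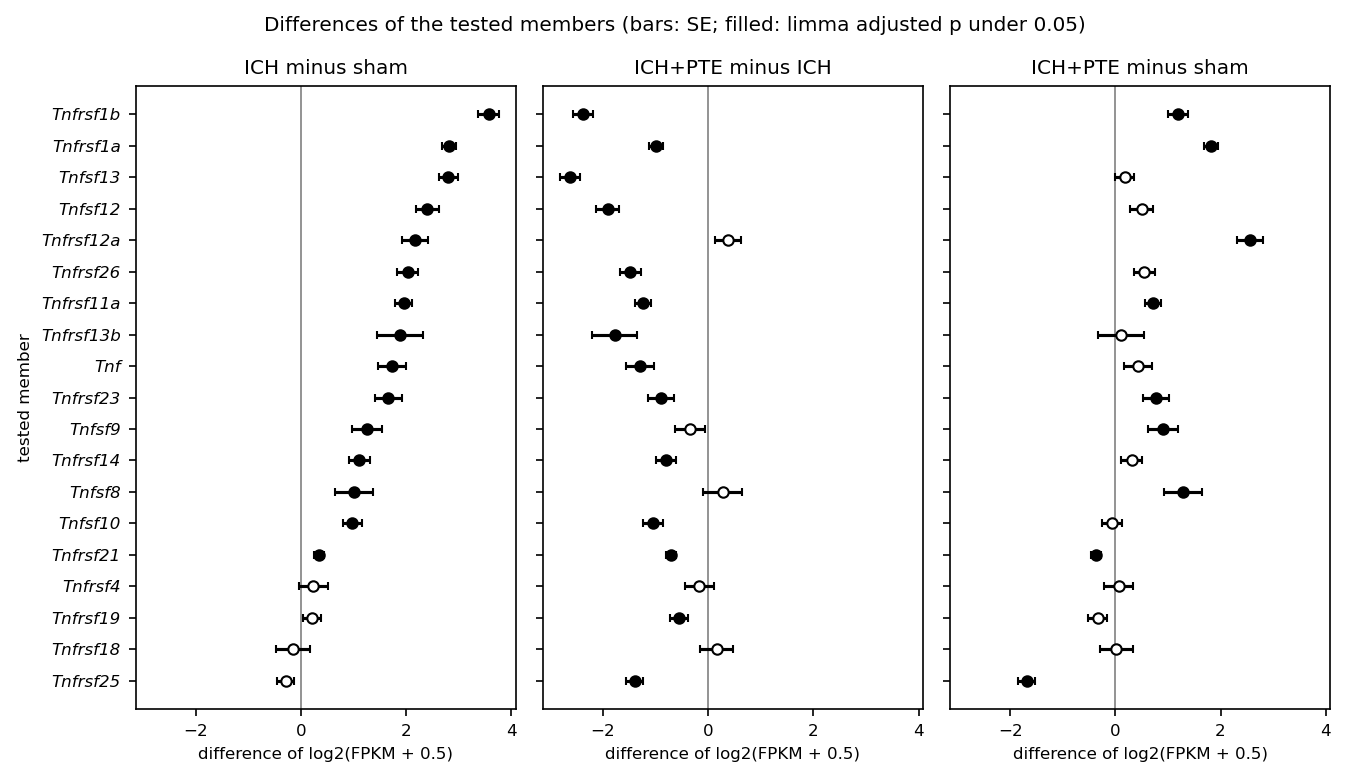
Difference in log2(FPKM + 0.5) of the 19 tested members in the 3 comparisons, with bars for the standard error of the limma fit and filled points for calls at an adjusted p under 0.05. The 15 called members lie right of 0 for ICH minus sham, the 14 called lie left of 0 for ICH+PTE minus ICH, and 7 are called higher and 2 lower for ICH+PTE minus sham.

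Tnf, the ligand that names the family and a product of activated microglia, macrophages and T cells, stood at 0.0587, 0.334 and 0.0607 FPKM in sham, 1.06, 2.30 and 1.67 in ICH, and 0.222, 0.480 and 0.417 in ICH+PTE. The ICH values lay above all others, and sham and ICH+PTE overlapped. The difference in ICH from sham was 1.73 ± 0.26 (adjusted p = 0.000269) and that of ICH+PTE from ICH -1.29 ± 0.26 (adjusted p = 0.00227) in limma. Between ICH+PTE and sham it was 0.44 ± 0.26 (adjusted p = 0.257), which was not called. At 1.68 ± 0.619 FPKM in ICH, Tnf was 3.88% to 5.89% of the summed FPKM of the ligands. That share overlapped with 1.07% to 5.69% in sham and 2.18% to 4.96% in ICH+PTE.

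Both of its receptors stood above the ligand per length in each of the 9 libraries. Tnfrsf1a, the death-domain receptor (TNFR1) of most tissue cells, stood at 4.19, 5.67 and 4.73 FPKM in sham, 33.4, 37.9 and 40.2 in ICH, and 18.3, 21.0 and 16.0 in ICH+PTE. The 3 groups did not overlap, with ICH+PTE between the other two. Its difference in ICH from sham was 2.82 ± 0.13 (adjusted p = 5.38e-07), that of ICH+PTE from ICH -0.99 ± 0.13 (adjusted p = 0.000214) and that of ICH+PTE from sham 1.82 ± 0.13 (adjusted p = 5.9e-05). Tnfrsf1b, the receptor (TNFR2) known from leukocytes, microglia and endothelium, stood at 1.62, 2.39 and 2.05 FPKM in sham, 23.5, 33.2 and 31.5 in ICH, and 4.25, 6.85 and 4.77 in ICH+PTE. These groups did not overlap either, and the 3 ICH+PTE values lay nearer to sham than to ICH. The difference in ICH from sham was 3.57 ± 0.19 (adjusted p = 8.26e-07), the largest among the tested members on the log2(FPKM + 0.5) scale, which shrinks the differences of lower members such as Tnfrsf26, and those of ICH+PTE from ICH and from sham were -2.38 ± 0.19 (adjusted p = 1.59e-05) and 1.19 ± 0.19 (adjusted p = 0.00258).

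The balance of the pair of TNF receptors was read as the ratio of their levels. The ratio of Tnfrsf1b to Tnfrsf1a FPKM was 0.413 ± 0.0238 in sham, 0.789 ± 0.0871 in ICH and 0.285 ± 0.0480 in ICH+PTE, with no overlap between any of the 3 groups. An exact two-sided permutation test gave p = 0.1 for each comparison, the smallest p that 3 against 3 mice allow. This ratio and that of Tnfrsf12a to Tnfsf12 below were chosen after the values were seen.

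**Figure D4:**
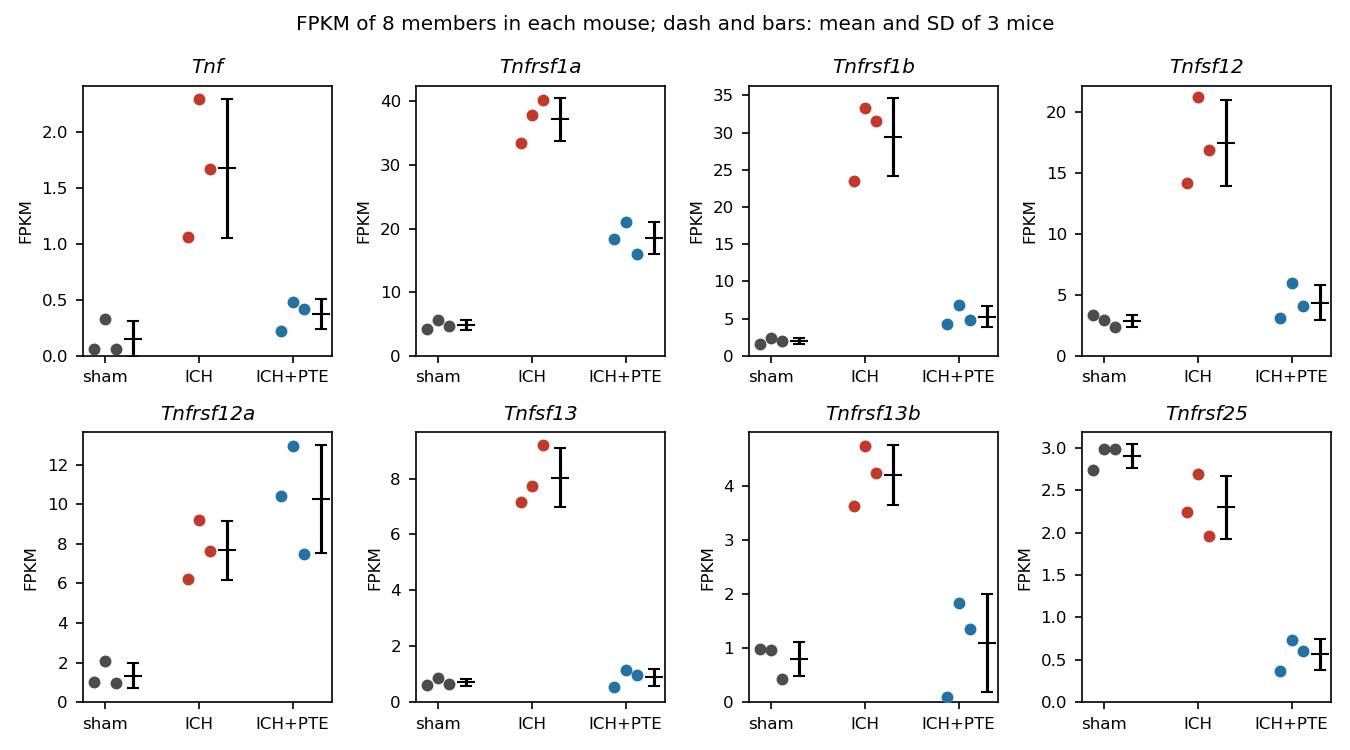
FPKM of 8 members in each mouse (points) with the group mean and SD (dash and bars), 1 panel per gene with its own linear axis. Tnf, Tnfrsf1b, Tnfsf12, Tnfsf13 and Tnfrsf13b are high in the 3 ICH mice, Tnfrsf12a is high in both ICH groups, and Tnfrsf25 is low in the 3 ICH+PTE mice.

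Bases upstream of Tnf, Tnfrsf1b, Tnfrsf12a and Tnfrsf25 are shown because these 4 genes carry 3 of the patterns found: high in ICH and lower with PTE, high in both ICH groups, and low with PTE. Other members had other patterns. The sequences are the 250 bases before the gene's start in RefSeq (GRCm38.p6), 5′ to 3′ on the gene's strand, in lower case with the motif found in capitals. By the deposited coordinates the genes lie at chromosome 17, 35199381 to 35202007 (minus strand), chromosome 4, 145213463 to 145246870 (minus), chromosome 17, 23675445 to 23677468 (minus) and chromosome 4, 152115934 to 152120119 (plus). The windows are chr17:35202008-35202257 (minus strand), chr4:145246871-145247120 (minus), chr17:23677450-23677699 (minus) and chr4:152115684-152115933 (plus).
Tnf: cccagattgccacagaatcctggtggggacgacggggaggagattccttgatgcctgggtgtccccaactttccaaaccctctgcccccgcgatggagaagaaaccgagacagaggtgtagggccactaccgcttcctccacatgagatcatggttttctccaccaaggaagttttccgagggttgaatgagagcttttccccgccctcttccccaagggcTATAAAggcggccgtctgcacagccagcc
Tnfrsf1b: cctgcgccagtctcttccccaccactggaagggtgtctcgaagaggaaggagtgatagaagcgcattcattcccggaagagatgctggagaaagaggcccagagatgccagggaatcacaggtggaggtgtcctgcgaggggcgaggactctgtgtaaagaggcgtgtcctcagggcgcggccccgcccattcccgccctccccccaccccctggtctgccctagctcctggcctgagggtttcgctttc
Tnfrsf12a: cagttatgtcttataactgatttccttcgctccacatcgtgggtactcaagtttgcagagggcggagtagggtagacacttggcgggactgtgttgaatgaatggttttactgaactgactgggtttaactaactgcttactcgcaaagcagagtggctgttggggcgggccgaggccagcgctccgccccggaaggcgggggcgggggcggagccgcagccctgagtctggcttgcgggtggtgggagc
Tnfrsf25: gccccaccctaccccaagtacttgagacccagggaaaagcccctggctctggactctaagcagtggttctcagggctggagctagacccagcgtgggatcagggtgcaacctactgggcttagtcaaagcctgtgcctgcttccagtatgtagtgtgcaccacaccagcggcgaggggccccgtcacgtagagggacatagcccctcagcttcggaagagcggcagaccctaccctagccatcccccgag
The RefSeq start of Tnfrsf12a lies 19 bases inside the deposited gene, and those of the other 3 coincide with it. The capitals in Tnf mark TATAAA, which begins 29 bases before the start, and none of the searched motifs lies in the other 3 windows. The searched motifs were TATAAA, the AP-1 motif TGANTCA and the NF-kappaB consensus, each on both strands. Of the 33 members 25 had an entry in the RefSeq table. Among the 25 windows TATAAA lay in 5 (Tnf, Tnfrsf17, Tnfrsf23, Tnfsf11 and Tnfsf18), the AP-1 motif in 3 (Tnfrsf8, Tnfsf13 and Tnfsf14) and the NF-kappaB consensus in 1 (Tnfrsf8). Over the 32851 windows of the table the shares were 12.4% for TATAAA, 6.75% for the AP-1 motif and 7.25% for the NF-kappaB consensus. Such matches are letters and not measured binding. The GC content was 57.6% in the window of Tnf, 62.8% in Tnfrsf1b, 58.8% in Tnfrsf12a and 61.6% in Tnfrsf25, against a median of 52.4% over the table.

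Tnfsf12 (TWEAK), a ligand of macrophages and other cells that acts through Tnfrsf12a, was the most abundant ligand and took 50.4% to 54.2% of the summed ligand FPKM in ICH. It stood at 3.35, 2.91 and 2.34 FPKM in sham, 14.2, 21.2 and 16.8 in ICH, and 3.07, 5.95 and 4.07 in ICH+PTE. The 3 ICH values were the highest, and sham and ICH+PTE overlapped. Differences were 2.40 ± 0.22 (adjusted p = 1.2e-05) for ICH from sham and -1.90 ± 0.22 (adjusted p = 8.97e-05) for ICH+PTE from ICH. That of ICH+PTE from sham, 0.50 ± 0.22 (adjusted p = 0.128), was not called, but was called under 2 of 20 alternatives, with an adjusted p of 0.0392 leaving out ICH+PTE 1 (range 0.0392 to 0.362). Tnfrsf12a (Fn14), a receptor induced by growth factors and injury in many tissues, was high in both ICH groups. Its values were 1.03, 2.07 and 0.959 FPKM in sham, 6.22, 9.18 and 7.62 in ICH, and 10.4, 12.9 and 7.47 in ICH+PTE. Both ICH groups lay above sham and overlapped with each other. The receptor rose in ICH by 2.17 ± 0.25 (adjusted p = 4.6e-05) and was higher than sham in ICH+PTE by 2.56 ± 0.25 (adjusted p = 0.000209), while ICH+PTE and ICH differed by 0.38 ± 0.25 (adjusted p = 0.216), which was not called. The ratio of receptor to ligand FPKM was 0.477 ± 0.211 in sham, 0.441 ± 0.00966 in ICH and 2.47 ± 0.819 in ICH+PTE. The exact two-sided permutation test gave p = 1 for ICH against sham and p = 0.1 for each of the other comparisons, of 6 ratio comparisons in all.

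Tnfsf13 (APRIL), a ligand that supports B and plasma cells and is made by myeloid cells, stood at 0.640, 0.864 and 0.656 FPKM in sham, 7.15, 7.73 and 9.21 in ICH, and 0.552, 1.15 and 0.997 in ICH+PTE. ICH lay above all other values, and sham and ICH+PTE overlapped. The difference in ICH from sham was 2.80 ± 0.18 (adjusted p = 1.96e-06) and that of ICH+PTE from ICH -2.63 ± 0.18 (adjusted p = 8.86e-06), while ICH+PTE and sham differed by 0.18 ± 0.18 (adjusted p = 0.52). Tnfsf12 and Tnfsf13 are 0.5 kb apart on chromosome 11. Tnfsfm13, an annotated gene on the same strand that overlaps both, stood at 1.64 ± 0.199 FPKM in sham, 14.1 ± 1.81 in ICH and 2.03 ± 0.408 in ICH+PTE. The split of reads among these 3 genes is uncertain. Tnfsf13os, transcribed from the other strand, was at 0.0600, 0.143 and 0.144 FPKM in sham, 0.232, 0.969 and 0.814 in ICH, and 0.178, 0.0877 and 0.508 in ICH+PTE and was not tested. The sources used here do not say whether the counting used strand, so its reads and those of the ligands may not have been told apart.

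Tnfrsf13b (TACI), a receptor of APRIL and BAFF on B cells, stood at 0.989, 0.969 and 0.434 FPKM in sham, 3.63, 4.74 and 4.25 in ICH, and 0.0936, 1.84 and 1.35 in ICH+PTE. ICH was the highest group without overlap, and ICH+PTE 1 was the lowest library of all. Differences were 1.88 ± 0.43 (adjusted p = 0.00335) for ICH from sham and -1.77 ± 0.43 (adjusted p = 0.00575) for ICH+PTE from ICH, the latter -1.17 without ICH+PTE 1. That of ICH+PTE from sham was 0.11 ± 0.43 (adjusted p = 0.876), and without ICH+PTE 1 its adjusted p was 0.0496 (range 0.0496 to 0.994). The 8 markers of B and plasma cells had sums between 8.72 and 15.6 FPKM in sham, between 7.44 and 14.2 in ICH and between 6.59 and 9.60 in ICH+PTE. Tnfsf13b (BAFF), a survival factor of B cells, stayed under the test's filter at 0.198, 0.261 and 0.134 FPKM in sham, 0.271, 0.549 and 0.421 in ICH, and 0.630, 0.425 and 0.486 in ICH+PTE.

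Tnfrsf11a (RANK), the receptor through which RANKL drives osteoclasts and which myeloid cells carry, stood at 0.637, 0.502 and 0.515 FPKM in sham, 3.32, 3.90 and 3.49 in ICH, and 1.12, 1.59 and 1.01 in ICH+PTE. The 3 groups did not overlap, with ICH+PTE between the others. It rose in ICH by 1.95 ± 0.16 (adjusted p = 5.86e-06), was lower in ICH+PTE than in ICH (-1.23 ± 0.16, adjusted p = 0.000157) and higher than in sham (0.72 ± 0.16, adjusted p = 0.0107). The last call was lost with ICH+PTE 3 alone for the treated group (adjusted p = 0.105, range 0.00672 to 0.105). Its soluble decoy Tnfrsf11b (osteoprotegerin) was at 0.225, 0.367 and 0.293 FPKM in sham, 0.866, 0.880 and 1.28 in ICH, and 0.439, 0.718 and 0.686 in ICH+PTE. Its ligand Tnfsf11 was under 0.5 FPKM in every library.

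Tnfsf10 (TRAIL), a ligand that can start apoptosis, stood at 0.611, 0.541 and 0.356 FPKM in sham, 1.27, 1.57 and 1.57 in ICH, and 0.328, 0.621 and 0.425 in ICH+PTE. ICH lay above both other groups, which overlapped. The ICH level differed from sham by 0.98 ± 0.19 (adjusted p = 0.00111) and ICH+PTE from ICH by -1.05 ± 0.19 (adjusted p = 0.00103). Its death receptor Tnfrsf10b was at 0.161, 0.215 and 0.217 FPKM in sham, 0.942, 0.837 and 0.697 in ICH, and 0.897, 0.604 and 0.314 in ICH+PTE and was not tested. Tnfrsf22 and Tnfrsf23 are mouse decoy receptors of TRAIL that lie with Tnfrsf26 in a row on chromosome 7, with gaps of 6.1 and 16.1 kb. They are alike in sequence, so the split of reads between them is uncertain.

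Tnfrsf23 stood at 0.269, 0.284 and 0.331 FPKM in sham, 1.77, 2.03 and 2.29 in ICH, and 0.424, 1.48 and 0.860 in ICH+PTE. All ICH values were above the others, and the ICH+PTE values lay above sham. The difference was 1.66 ± 0.25 (adjusted p = 0.000232) in ICH from sham and -0.89 ± 0.25 (adjusted p = 0.0115) in ICH+PTE from ICH. Against sham ICH+PTE was called (0.77 ± 0.25, adjusted p = 0.0493), but the call was lost in 13 of 20 alternatives (range 0.00666 to 0.139), with adjusted p-values of 0.105 leaving out sham 1, 0.113 leaving out sham 2, 0.102 leaving out sham 3, 0.064 leaving out ICH 1, 0.0708 leaving out ICH 2, 0.0704 leaving out ICH 3, 0.139 leaving out ICH+PTE 2 and 0.0922 leaving out ICH+PTE 3. Without ICH+PTE 2 the difference was 0.50. Tnfrsf26, the third of the row, stood at 0.0173, 0.0605 and 0.0468 FPKM in sham, 1.63, 2.14 and 1.41 in ICH, and 0.253, 0.444 and 0.200 in ICH+PTE. Its groups did not overlap. It was higher in ICH than in sham by 2.03 ± 0.20 (adjusted p = 1.97e-05) and lower in ICH+PTE than in ICH (-1.48 ± 0.20, adjusted p = 0.000228), and the difference of ICH+PTE from sham was 0.55 ± 0.20 (adjusted p = 0.0757), not called. That difference was called under 3 of 20 alternatives (range 0.0235 to 0.402), at 1.46 with a pseudocount of 0.1, 1.15 when FPKM was rescaled to TPM and 1.38 without haemoglobin and mitochondrial genes. The difference of ICH from sham was 3.68 with a pseudocount of 0.1. Tnfrsf22 was at 0.270, 0.474 and 0.452 FPKM in sham, 0.833, 0.988 and 1.07 in ICH, and 0.632, 0.781 and 0.632 in ICH+PTE and was not tested. On the other strand Tnfrsf26 overlaps E230032D23Rik, with which its reads may be mixed.

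Tnfrsf14 (HVEM), a receptor of the ligand LIGHT on lymphoid and myeloid cells, stood at 0.226, 0.327 and 0.320 FPKM in sham, 1.01, 1.54 and 1.12 in ICH, and 0.317, 0.576 and 0.574 in ICH+PTE. ICH lay above both other groups. It rose in ICH by 1.11 ± 0.20 (adjusted p = 0.0007) and was lower in ICH+PTE (-0.80 ± 0.20, adjusted p = 0.00621), a call lost with ICH+PTE 3 alone for the treated group (adjusted p = 0.0575, range 0.00511 to 0.0575). Its ligand Tnfsf14 (LIGHT) was at 0.0327, 0 and 0 FPKM in sham, 0.693, 0.769 and 0.710 in ICH, and 0.142, 0.280 and 0.272 in ICH+PTE and was not tested. In sham 2 of 3 libraries were listed at 0.

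Tnfrsf25 (death receptor 3), a death-domain receptor known from T cells, was low in the mice given PTE. It stood at 2.73, 2.98 and 2.98 FPKM in sham, 2.24, 2.69 and 1.96 in ICH, and 0.365, 0.730 and 0.606 in ICH+PTE. The 3 ICH+PTE values were far under the other 6, and ICH was below sham without overlap. The ICH+PTE level differed from ICH by -1.40 ± 0.16 (adjusted p = 9.94e-05) and from sham by -1.69 ± 0.16 (adjusted p = 0.000208). The difference of ICH from sham was -0.29 ± 0.16 (adjusted p = 0.149), not called, and called lower under 3 alternatives (range 0.019 to 0.386). The 8 T cell markers had their highest sums in ICH, at 3.66 to 6.11 FPKM, where sham had 0.817 to 1.45 and ICH+PTE 0.514 to 2.45. Of the 2.45 FPKM, in ICH+PTE 3, the marker Trac alone was 1.95. The part of T cells in the level of Tnfrsf25 was not tested. Its ligand Tnfsf15 was under 0.5 FPKM in every library.

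Tnfrsf21 and Tnfrsf19, the leading receptors of sham brain, had smaller differences than the TNF receptors. Tnfrsf21 stood at 14.9, 17.6 and 16.4 FPKM in sham, 19.8, 21.2 and 21.2 in ICH, and 12.8, 11.6 and 13.2 in ICH+PTE. The 3 groups did not overlap, with ICH the highest and ICH+PTE the lowest. Differences were 0.34 ± 0.10 (adjusted p = 0.00992) for ICH from sham, -0.71 ± 0.10 (adjusted p = 0.00021) for ICH+PTE from ICH and -0.36 ± 0.10 (adjusted p = 0.0218) for ICH+PTE from sham. The first was lost when FPKM was rescaled to TPM, or after removal of haemoglobin and mitochondrial genes (range 0.00307 to 0.725). The last was lost in 6 of 20 alternatives (range 0.0106 to 0.181), with adjusted p-values of 0.0883 leaving out sham 2, 0.0686 leaving out sham 3 and 0.0657 leaving out ICH+PTE 2. Tnfrsf19 stood at 14.3, 14.1 and 12.4 FPKM in sham, 21.2, 12.5 and 15.0 in ICH, and 9.30, 12.4 and 10.5 in ICH+PTE. ICH and sham overlapped, and the 3 ICH+PTE values lay just below both. It was not called in ICH against sham (0.21 ± 0.18, adjusted p = 0.309) or in ICH+PTE against sham (-0.34 ± 0.18, adjusted p = 0.193). It was called lower in ICH+PTE than in ICH (-0.55 ± 0.18, adjusted p = 0.0222), which was lost in 7 of 20 alternatives (range 0.00802 to 0.187), with an adjusted p of 0.0679 leaving out ICH 1, 0.072 leaving out ICH+PTE 1 and 0.0567 leaving out ICH+PTE 3. Without ICH 1 the difference was -0.35.

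The ligands and receptors of T cell costimulation were all at low levels. Tnfsf9 (4-1BB ligand) stood at 0.469, 0.697 and 0.655 FPKM in sham, 1.51, 3.60 and 1.73 in ICH, and 2.28, 1.50 and 1.10 in ICH+PTE. Both ICH groups lay above sham and overlapped with each other. It rose in ICH by 1.26 ± 0.28 (adjusted p = 0.003), and ICH+PTE and ICH differed by -0.35 ± 0.28 (adjusted p = 0.311), not called. The call of ICH+PTE against sham (0.91 ± 0.28, adjusted p = 0.0426) was lost in 11 of 20 alternatives (range 0.0187 to 0.395), with an adjusted p of 0.111 leaving out sham 1, 0.0804 leaving out sham 2, 0.0918 leaving out sham 3, 0.0559 leaving out ICH 3, 0.114 leaving out ICH+PTE 1 and 0.0819 leaving out ICH+PTE 2. It overlaps Gm11110 on the other strand. Its receptor Tnfrsf9 (4-1BB) was at 0.267, 0.114 and 0.199 FPKM in sham, 0.711, 0.634 and 0.675 in ICH, and 0.223, 0.465 and 0.245 in ICH+PTE and lies on the other strand of Camta1, which was at 13.1 ± 1.97 FPKM in sham, 5.75 ± 1.02 in ICH and 14.9 ± 0.864 in ICH+PTE.

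Tnfsf8 (CD30 ligand) stood at 0.122, 0.205 and 0.427 FPKM in sham, 0.951, 0.983 and 1.04 in ICH, and 2.76, 1.36 and 0.472 in ICH+PTE. The ICH+PTE mice differed from each other by more than those of any other group, and sham lay below both. It was called in ICH against sham (1.01 ± 0.37, adjusted p = 0.0334) and in ICH+PTE against sham (1.29 ± 0.37, adjusted p = 0.0306), each lost in 8 of 20 alternatives. Over them the adjusted p ran 0.00231 to 0.123 for ICH, with an adjusted p of 0.0955 leaving out sham 1, 0.0797 leaving out sham 2, 0.0648 leaving out ICH 1, 0.0713 leaving out ICH 2 and 0.0777 leaving out ICH 3. It ran 0.00387 to 0.406 for ICH+PTE, with an adjusted p of 0.0861 leaving out sham 1, 0.0819 leaving out sham 2, 0.0616 leaving out ICH+PTE 1 and 0.0726 leaving out ICH+PTE 2. ICH+PTE and ICH differed by 0.27 ± 0.37 (adjusted p = 0.541). The fit takes 1 spread from the 3 groups, so the error of 0.37 for ICH from sham also reflects the ICH+PTE mice. The SDs of Tnfsf8 were 0.158 FPKM in sham, 0.0473 in ICH and 1.16 in ICH+PTE. Its receptor Tnfrsf8 (CD30) was at 0.322, 0.316 and 0.313 FPKM in sham, 0.296, 0.396 and 0.523 in ICH, and 0.795, 0.566 and 0.802 in ICH+PTE, where the 3 ICH+PTE values were the highest, and was not tested.

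Tnfrsf18 (GITR) and Tnfrsf4 (OX40), receptors of activated and regulatory T cells, were not called in any comparison. Tnfrsf18 stood at 1.48, 1.46 and 2.15 FPKM in sham, 1.25, 1.42 and 1.75 in ICH, and 0.734, 2.06 and 2.87 in ICH+PTE. The groups overlapped, and ICH+PTE 1 was the lowest library. The difference of ICH+PTE from ICH was 0.17 ± 0.32 (adjusted p = 0.672) and had an adjusted p of 0.0316 without ICH+PTE 1 (range 0.0248 to 0.904). It overlaps the antisense gene Gm16008. Tnfrsf4 stood at 1.79, 0.749 and 0.985 FPKM in sham, 1.78, 1.23 and 1.25 in ICH, and 1.51, 1.54 and 0.683 in ICH+PTE, with overlap among all groups and differences of 0.23, -0.17 and 0.06 in the order ICH from sham, ICH+PTE from ICH and ICH+PTE from sham.

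The other 6 untested members (Tnfsf4, Tnfsf11, Tnfsf15, Tnfsf18, Tnfrsf13c and Tnfrsf17) were under 0.5 FPKM in every library. When every gene above 0 was tested, 6 untested members were called higher in ICH than in sham, where 15.1% of all 36346 genes were. Tnfsf14 led with 1.26 (adjusted p = 9.88e-05), followed by Tnfrsf10b at 0.92, Tnfrsf11b at 0.92, Tnfrsf9 at 0.76, Tnfrsf22 at 0.71 and Tnfrsf13c at 0.46. In ICH+PTE against ICH, Tnfsf14 (-0.75, adjusted p = 0.00147) and Tnfrsf9 (-0.54, adjusted p = 0.0276) were lower, where 13.7% of all genes were. Tnfsf14 was also higher in ICH+PTE than in sham (0.51, adjusted p = 0.0236), where 3.73% of all genes were.

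Family genes under other symbols, and genes of ligand release, receptor signalling and its control, were read from 4 lists. The lists were drawn up with earlier results of these data known. Some listed genes, such as Ripk3, Rhbdf2, Map3k14 and Nfkbie, reached 1 FPKM in no sham library and entered the test through the ICH groups. Counts and medians over the lists below therefore describe them and are no support for a direction. Of the family genes under other symbols, 4 of 14 were tested and 2 rose in ICH, where 31.6% of all tested genes were higher. Ltbr, the lymphotoxin beta receptor of stromal and myeloid cells, went from 3.74 ± 0.496 to 23.0 ± 2.22 FPKM in ICH, with 9.01 ± 2.53 in ICH+PTE. Its differences were 2.47 ± 0.18 (adjusted p = 3.03e-06) and, for ICH+PTE from ICH, -1.33 ± 0.18 (adjusted p = 0.000196). Fas, a death receptor, was at 1.52 ± 0.620, 3.84 ± 0.614 and 4.80 ± 0.844 FPKM in the same order. It rose in ICH by 1.13 ± 0.21 (adjusted p = 0.00102), and the difference of ICH+PTE from ICH was 0.29 ± 0.21 (adjusted p = 0.274), not called.

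Of 27 adaptors and parts of the signalling complex, 26 were tested, with 16 higher and 4 lower in ICH, where 31.6% of all tested genes were higher and 32.1% lower. Their median difference was 0.67, against -0.02 over all tested genes. The largest rises were those of Ripk3, the kinase of necroptosis, at 2.71, the initiator caspase Casp8 at 2.70 and Rhbdf2, which helps the TNF-releasing protease ADAM17 to the cell surface, at 2.51. All 3 were called (adjusted p = 2.35e-06 for Ripk3, adjusted p = 4.37e-06 for Casp8 and adjusted p = 2.03e-06 for Rhbdf2). Ripk3 stood at 0.130 ± 0.0644, 3.60 ± 0.172 and 0.812 ± 0.280 FPKM and Casp8 at 1.03 ± 0.0832, 9.55 ± 1.73 and 2.43 ± 0.880 in sham, ICH and ICH+PTE. The largest falls were those of the kinases Tnik (-1.16 ± 0.22, adjusted p = 0.00115) and Map3k5 (-0.75 ± 0.13, adjusted p = 0.0005) and of Tab3 (-0.67 ± 0.15, adjusted p = 0.00335), a partner of the kinase TAK1. In ICH+PTE against ICH, 15 of the 26 were lower and 3 higher, against 30.5% and 26.4% of all tested genes. Ripk3 differed by -1.66, Casp8 by -1.81, Rhbdf2 by -1.66, Tnik by 1.25, Map3k5 by 0.44 and Tab3 by 0.70, all called.

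Of the 4 genes of non-canonical NF-kappaB signalling 3 rose in ICH, against 31.6% of all tested genes. The same 3 were lower in ICH+PTE than in ICH, against 30.5%. They were the subunits Nfkb2 (1.95 and -1.31) and Relb (1.20 and -1.12) and the kinase Map3k14 (1.13 and -1.01). Of 10 inducible negative regulators 9 were tested, with 6 higher and 1 lower in ICH, against 31.6% and 32.1% of all tested genes. Nfkbia, the inhibitor of NF-kappaB that NF-kappaB itself induces, was at 9.04 ± 2.24, 26.1 ± 1.76 and 21.4 ± 6.54 FPKM. It rose in ICH by 1.50 ± 0.21 (adjusted p = 0.00014), and its difference of ICH+PTE from ICH was -0.32 ± 0.21 (adjusted p = 0.213), not called, with an adjusted p of 0.0246 leaving out ICH+PTE 1 (range 0.0246 to 0.851). Its relative Nfkbie and the ubiquitin-editing enzyme Tnfaip3 rose in ICH by 1.50 and 1.13. Both were lower in ICH+PTE than in ICH, with differences of -0.92 and -0.74. The deubiquitinase Cyld fell from 24.4 ± 2.80 to 10.7 ± 2.50 FPKM in ICH (-1.17 ± 0.18, adjusted p = 0.00031). In ICH+PTE it was at 16.1 ± 3.40 FPKM, a difference from ICH of 0.57 ± 0.18 (adjusted p = 0.0223), with an adjusted p of 0.0886 leaving out ICH 2, 0.0573 leaving out ICH 3 and 0.0855 leaving out ICH+PTE 3 (range 0.00526 to 0.0886).

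Against sham, where 11.3% of all tested genes were higher in ICH+PTE and 12.1% lower, ICH+PTE was higher in 7 and lower in 1 of the 26 adaptors and in 1 and 0 of the 4 non-canonical genes. It was higher in 4 and lower in 1 of the 9 negative regulators and higher in 3 and lower in 0 of the 4 family genes under other symbols. The non-canonical call, Nfkb2 (0.64 ± 0.18, adjusted p = 0.0314), was lost in 9 of 20 alternatives (range 0.0158 to 0.195), with an adjusted p of 0.0792 leaving out sham 1, 0.111 leaving out sham 3, 0.0964 leaving out ICH+PTE 2 and 0.0511 leaving out ICH+PTE 3. The lower negative regulator, Cyld (-0.60 ± 0.18, adjusted p = 0.0398), was lost in 10 of 20 (range 0.0189 to 0.49), with an adjusted p of 0.0566 leaving out sham 1, 0.0874 leaving out sham 2, 0.133 leaving out sham 3, 0.0598 leaving out ICH 3, 0.0996 leaving out ICH+PTE 1 and 0.112 leaving out ICH+PTE 2. Ripk3 (1.04 ± 0.18, adjusted p = 0.00402) and Casp8 (0.90 ± 0.21, adjusted p = 0.0134) were among the higher adaptors. The median difference of the 26 adaptors was 0.09, against -0.03 over all tested genes.

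**Figure D5:**
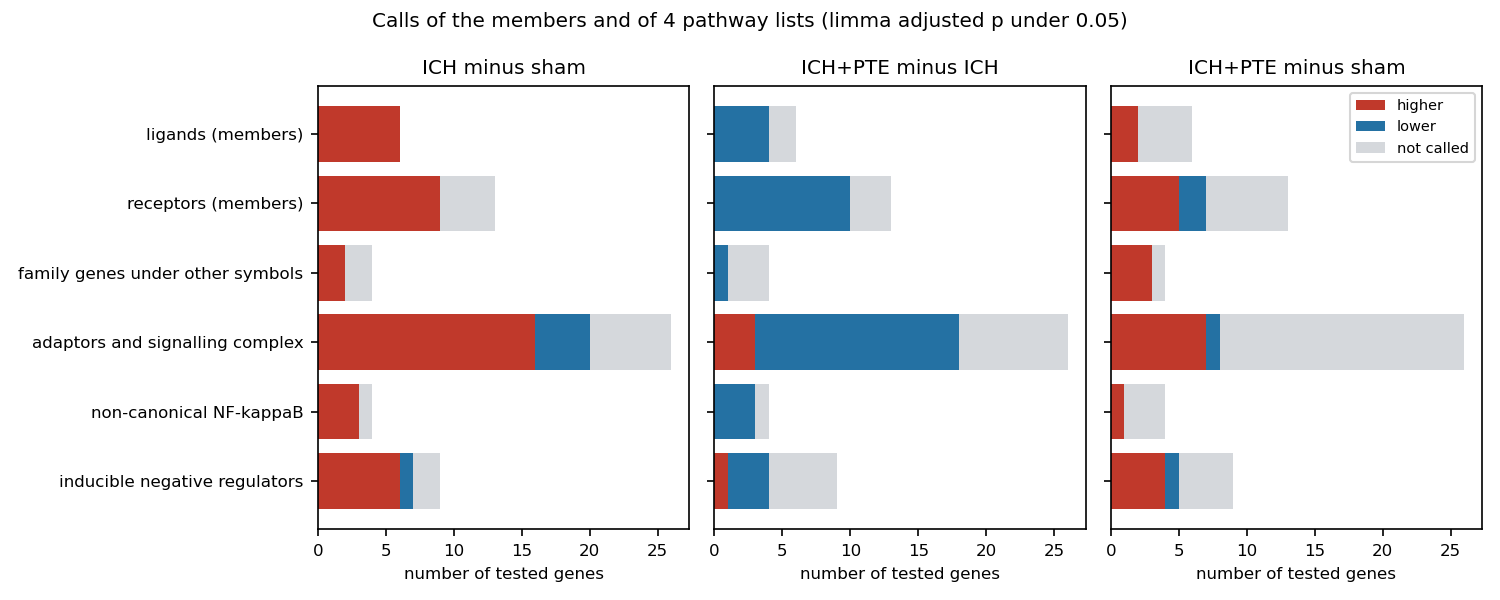
Number of tested genes called higher, called lower and not called in each comparison for the ligands, the receptors and the 4 pathway lists. In ICH minus sham the higher calls are 6 of 6 ligands, 9 of 13 receptors and 16 of 26 adaptors, and in ICH+PTE minus ICH the lower calls are 4, 10 and 15.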

How the data were processed

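RNA of 9 mouse brain samples was selected with oligo(dT) and sequenced from libraries that keep the strand, per the labels' protocols. The authors deposited 1 table of FPKM values per gene and library. Per the submitters' processing notes, the tools were StringTie 1.3.4d, HISAT2 2.0.4 and cutadapt 1.9, and the sources used here name no build. For 29 of the 33 members (87.9%) the deposited start and end matched GENCODE M21 (GRCm38). Between 13.5% and 17.5% of the low values of single-exon genes were whole multiples of a read's worth at a tolerance of 0.02 of a step. Chance gives 4% at 1 depth fixed in advance, whereas for each library the depth with the highest share was taken. Whole reads could not be recovered for most values, so depth is not known and no counting interval is given.

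Values were tested as log2(FPKM + 0.5) with limma 3.58.1 in R 4.3.3, with 1 mean per group over all 9 libraries and a mean-variance trend. Genes with at least 1 FPKM in at least 3 libraries entered, and p-values were adjusted by Benjamini-Hochberg over all 15376 of them. The limma step was run on simulated data with normal noise and known differences as a check of the code, which does not bear on the results above. Such p-values reflect how mice within a group varied, with 1 spread per gene shared by the 3 groups. A group whose mice differ widely thus also widens the error of the comparison it is not in. Ratios were compared by exact permutation tests.

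The members, the gene lists and the tests were chosen with earlier results of these data known. Every tested member is named, as is each untested member with at least 0.5 FPKM in some library, and of each pathway list the 3 largest called rises and falls in ICH minus sham. The 20 alternatives covered the pseudocount, the filter, the scaling, weights, the samples in the fit and a replicate block. Replicate numbers are shared by the groups in the labels but name different mice. The correlation of same-numbered libraries was 0.003 to 0.252.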

Additional observations from a re-analysis of the deposited data

How the results depend on the processing

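Of the 57 results on members, 43 kept their call under all 20 alternatives, and 0 called results changed sign. The count of called members in ICH+PTE minus sham was 9, and it was 5 with quantile normalization and 4 when ICH+PTE 3 was kept alone, whose spread is then assumed to be that of the other groups. Leaving out 1 library at a time gave 5 to 9 members, with 5 without sham 2 and 5 without ICH+PTE 2. Over all genes the same comparison called 3603, and 1322 with ICH+PTE 3 alone. Leaving out 1 library gave 2125 to 3712, with 2258 without sham 2 and 2125 without sham 3. With the replicate number as a block, 15, 14 and 9 members were called in the 3 comparisons, as without it. Correlations of same-numbered libraries were all positive (0.003 to 0.252), and those of different numbers ran from -0.302 to 0.19. The 2 ranges overlap, and whether same-numbered libraries share a batch or run was not tested. A pseudocount of 0.1 raised the difference of ICH from sham of low members, for Tnf from 1.73 to 2.93 and for Tnfrsf14 from 1.11 to 1.75. Scaling moved the balance of calls over all genes. In ICH minus sham 4862 were higher and 4936 lower, which became 3989 and 5987 with TPM and 3472 and 7051 without haemoglobin and mitochondrial genes. In ICH+PTE minus ICH, 4065 higher and 4683 lower became 4886 and 4089 with quantile normalization and 6120 and 3110 without those genes. In ICH+PTE minus sham, 1736 and 1867 became 1293 and 2942 with TPM. The median over all genes moved to -0.19 and -0.31 in ICH minus sham under TPM and without those genes. It moved to 0.24 in ICH+PTE minus ICH without those genes and to -0.16 in ICH+PTE minus sham with TPM. The depth is not known, so what it limits among the members under 1 FPKM cannot be stated.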
